A study of Mus musculus with 10 samples.

Results

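*Kit*, *G0s2*, *Myo5b*, *Kcnj8*, *Hsd11b1*, *Coro6*, *Ston1*, *Rasgrp2*, *Cecr2* and *Gkn3* are 10 of the 46517 mouse genes counted in single endothelial cells of ear skin. They were listed by name because earlier work on these cells had found them lower in endothelium with active PI3K than in control endothelium, in lymphatic endothelial cells (LECs), blood endothelial cells (BECs) or both. The difference between mutant and control mice therefore chose the genes. It is described here mouse by mouse and carries no test. For these genes tests are given only between cells of the same mouse, beside tests of the make-up of the sorted cells. The choice did not use the contrast within mice, but the fits pool mutant and control mice, so lower mutant levels enter them. Other genes from lists of partners, also drawn up with earlier results known, were tested between mutant and control mice. The question was whether the lower levels lay within each endothelial subtype or followed from a change in how many cells of each subtype were sorted.

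Single cells from the ear skin of 5-week-old mice were sorted into 384-well plates by Podoplanin and CD31 and sequenced with Smart-Seq2, a method that reads full-length transcripts and carries no molecular identifiers. The mutant group held 5 Cre+ mice of the strain Pik3caH1047R;Cdh5-CreERT2, which received 4-OHT topically on the ear at 3 weeks of age. Control 1 was an untreated C57BL/6J mouse, and control 2 was a Cre- mouse of the mutant strain that received 4-OHT at the same age. Mutants 3 and 5 had 2 plates each, which were added up, and the others had 1. In the Cre+ mice the hydroxytamoxifen-activated Cre is driven by *Cdh5*, a promoter of all endothelium, and switches on an activated form of the PI3K catalytic subunit. The mutation is therefore not confined to lymphatic vessels, and recombination was not read in each cell. With only 2 controls, which differ in strain, Cre allele and treatment, the spread of the control group is poorly known, and both control values are given throughout. Mutants 1 to 4 also carry a different series of plate numbers than mutant 5 and the controls. For those 4 mice genotype and plate series cannot be told apart, and mutant 5 gives the only comparison within the series.

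As background, PI3K acts through the kinase AKT, which keeps the FOXO transcription factors out of the nucleus and lowers the transcription of their targets. In vessels the pathway drives endothelial growth, and activating mutations of its catalytic subunit cause lymphatic and venous malformations. The 10 genes do not form a pathway. *G0s2* encodes an inhibitor of adipose triglyceride lipase. *Hsd11b1* encodes the reductase that regenerates active glucocorticoid inside cells. *Myo5b* encodes a class V myosin that moves recycling endosomes. *Kcnj8* encodes a pore subunit of vascular ATP-sensitive potassium (KATP) channels and is known from pericytes and smooth muscle. *Coro6* encodes a coronin, a protein that binds actin. *Ston1* encodes a stonin, an endocytic adaptor. *Rasgrp2* encodes an exchange factor for the small GTPase RAP1, best known from platelets. *Kit* encodes the receptor of stem cell factor, best known from mast cells and melanocytes. *Cecr2* encodes a bromodomain subunit of ISWI chromatin remodelling complexes. *Gkn3* encodes a gastrokine known as a marker of arterial endothelium.

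In the annotation of GRCm38 the genes lie on 7 chromosomes, and all are protein coding. *Hsd11b1* (chr1:193221634-193264075) and *G0s2* (chr1:193272161-193273217) are neighbours on the minus strand, 8085 bases apart, and share no exon bases. *Gkn3* (chr6:87383256-87388935, minus), *Cecr2* (chr6:120666369-120771190, plus) and *Kcnj8* (chr6:142564837-142571614, minus) lie far apart on chromosome 6. *Kit* is at chr5:75574916-75656722 (plus), *Coro6* at chr11:77462411-77470484 (plus), *Ston1* at chr17:88597684-88662586 (plus) and *Rasgrp2* at chr19:6399340-6415216 (plus). An antisense gene covers 4.00% of the exon bases of *Ston1* and 2.14% of those of *Rasgrp2*. Smart-Seq2 does not mark strand, so reads in these stretches cannot be assigned to a strand.

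Because FOXO factors lie downstream of PI3K, the promoters of the members were searched for the FOXO core motif GTAAACA on both strands, from 250 bases before to 50 bases after each start. Promoters were held for 8 of the 10 genes, and 1 of them, *Hsd11b1*, contained the motif. Of all 32851 promoters of this length in the RefSeq table (GRCm38.p6), 3.65% contained it. The window around the match, at chr1:193242482-193242508 on the minus strand, is shown with the motif in capitals, whose first base lies at -138 from the start that the RefSeq table gives. That start lies inside *Hsd11b1* as printed above, whose annotated span begins further upstream.
Hsd11b1 promoter window: atgaaatggaGTAAACAttgtccatta
The match is a description of these letters only, and the absence of a match elsewhere says nothing of the other genes.

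LECs were the cells in which the summed CPM (reads of a gene, scaled to the same total in every cell) of *Prox1*, *Flt4* and *Mmrn1* exceeded those of *Flt1*, *Emcn* and *Podxl*, and BECs the reverse. This gave 359 LECs and 313 BECs from controls and 1282 LECs and 1192 BECs from mutants. Plates held between 99738886 and 151102969 reads. The cells carried endothelial RNA: the 6 pan-endothelial markers summed to 6577 CPM or more in the LECs of each mouse. The LEC markers summed to between 3678 and 5964 CPM in LECs and at most 232 CPM in BECs. RNA of other cell types differed between the groups. The 6 mural markers summed to between 282 and 482 CPM in control BECs and between 37.1 and 125 CPM in mutant BECs, and the 6 fibroblast markers to between 142 and 167 CPM in control LECs and between 24.3 and 59.8 CPM in mutant LECs. These values are set beside the genes they move with.

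In both cell types 8 of the 10 genes reached a control mean of 5 CPM or more: all but *Cecr2* and *Gkn3* in LECs, and all but *Myo5b* and *Hsd11b1* in BECs. All 5 mutants lay below both controls for 5 of these 8 genes in LECs and for 6 of 8 in BECs. Of all genes with a mean of 5 CPM or more in controls or in mutants, 11.8% in LECs and 11.1% in BECs had such an order. This limit is wider than that of the members, though the same 8 members pass it. As the genes were chosen on this contrast, and the limit of the members reads the controls, nothing is drawn from these counts. Mutant 5 alone, of the controls' plate series, was below both controls for 7 of the 8 genes in LECs and 8 of 8 in BECs. The share of all genes with this order in a single mouse was not counted, and nothing is drawn from it. In the fit across all genes of read sums per mouse (edgeR's quasi-likelihood test), the median log2 fold change of the 10 genes, mutant minus control, was -1.43 in LECs and -2.45 in BECs, against medians of 0.00065 and 0.021 over all genes tested.

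Per kilobase of exon, the levels in control LECs ran from *G0s2* at 139 CPM per kb over *Coro6* (24.6), *Hsd11b1* (23.9), *Kcnj8* (12.3), *Rasgrp2* (5.05), *Ston1* (4.95), *Myo5b* (2.20), *Gkn3* (1.93) and *Kit* (1.11) to *Cecr2* (0.0644). In control BECs the order was *Gkn3* (46.2 CPM per kb), *Coro6* (17.6), *Kcnj8* (12), *Ston1* (8.10), *G0s2* (7.38), *Rasgrp2* (6.64), *Kit* (4.04), *Cecr2* (1.56), *Hsd11b1* (0.309) and *Myo5b* (0.0427). The controls differed widely for some genes, such as *Coro6* in LECs at 118 and 29.4 CPM, so neighbours in these orders are not separated, except that *G0s2* in LECs stood above every other member in both controls.

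The genes divided by lineage. Within mice, LECs and BECs were compared in read sums with the mouse as a block, and 7 of the 10 genes passed an adjusted p of 0.05 (edgeR's quasi-likelihood test, Benjamini-Hochberg over all 21821 genes tested), beside 21.8% of all genes. *Hsd11b1* was higher in LECs by 6.37 on the log2 scale (SE 0.65, adjusted p = 0.000139), *Myo5b* by 5.82 (SE 1.13, adjusted p = 0.0057) and *G0s2* by 4.62 (SE 0.59, adjusted p = 0.000508). *Gkn3* was higher in BECs, with a log2 fold change, LECs minus BECs, of -5.27 (SE 0.89, adjusted p = 0.00264). So were *Cecr2* at -2.96 (SE 0.67, adjusted p = 0.0125), *Kit* at -2.04 (SE 0.23, adjusted p = 0.000275) and *Ston1* at -0.86 (SE 0.21, adjusted p = 0.0177). The 3 others did not pass: *Kcnj8* at 2.91 (SE 1.02, adjusted p = 0.0754), *Coro6* at -0.98 (SE 0.34, adjusted p = 0.0764) and *Rasgrp2* at 1.05 (SE 0.40, adjusted p = 0.101). DESeq2 called all 10. The fit pools mutant and control mice, so the lower mutant levels that chose the genes enter these values. In controls the means in LECs and BECs were 31.3 and 30.7 CPM for *Kcnj8* and 73.9 and 52.9 CPM for *Coro6*. For *Rasgrp2* they were 62.5 and 82.3 CPM, so *Coro6* and *Rasgrp2* had the opposite order to the fit. For the 7 genes that passed in edgeR, the control means had the order of the fit. *Ston1* missed the threshold without control 2 and in mutant mice only, and *Cecr2* in mutant mice only (adjusted p = 0.0544, 0.0795 and 0.0631). The p-values measure only the spread between these mice.

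The lipase inhibitor *G0s2* had the highest mean CPM of the set in control LECs, level with *Hsd11b1* in control 2. Its mean in LECs was 129 CPM in control 1 and 113 CPM in control 2, and 40.4, 71.4, 28.1, 22.7 and 20.9 CPM in mutants 1 to 5. All mutants were below both controls, and the mutant mean of 36.7 ± 20.8 CPM (SD, n = 5) was 30.4% of the control mean. The fitted log2 fold change was -1.92 (SE 0.39). After each cell was thinned to 50000 reads, *G0s2* was seen in 32.2% and 49.5% of control LECs and in between 10.1% and 24.7% of mutant LECs. In BECs it was low, at 7.93 and 4.92 CPM in controls and between 0.173 and 6.60 CPM in mutants, and the groups overlapped. Control 1 held a read of *G0s2* in 23.7% of its BECs against 5.73% in control 2, and 74.4% of the level in control 2 came from a single cell.

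The glucocorticoid reductase *Hsd11b1* was close to restricted to LECs. It was at 90.6 and 112 CPM in the LECs of the controls and at 31.7, 22.7, 13.9, 8.08 and 9.68 CPM in mutants 1 to 5. The groups did not overlap, and the mutant mean of 17.2 ± 9.87 CPM (SD, n = 5) was 16.9% of the control mean, with a log2 fold change of -2.62 (SE 0.40). Reads were seen in 27.7% and 29.7% of control LECs and in between 5.74% and 9.84% of mutant LECs at equal depth. In BECs the share was 9.62% and 5.73% in controls with means of 1.70 and 0.924 CPM, and no mouse exceeded 1.77 CPM.

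*Hsd11b1* and its neighbour *G0s2* varied together over the 28 sums of LEC classes and mice (Pearson r = 0.67, across sums that share mice and depth). These sums hold mutants and controls, so the lower mutant levels that chose both genes enter r, and nothing is drawn from it. In control LECs a read of *Hsd11b1* was found in 36.7% (control 1) and 35.1% (control 2) of cells with a read of *G0s2*, and in 22.8% and 24.2% of the remaining cells. In mutants 1 to 3 the shares were 15.0%, 13.0% and 14.5% in cells with *G0s2* and 8.39%, 5.71% and 6.45% in the rest. In mutants 4 and 5 the order turned, with 4.55% and 5.41% in cells with *G0s2* and 6.88% and 5.78% in the rest.

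The myosin *Myo5b* (chr18:74440936-74771493, plus) was at 29.8 and 13.2 CPM in control LECs and at 6.19, 16.8, 2.94, 14.9 and 2.09 CPM in the mutants. Mutants 2 and 4 lay above control 2, so the groups overlapped, and the log2 fold change of -1.24 had an SE of 0.89. Few cells carried the gene: up to 65.6% of a mouse's total came from a single LEC. In BECs it was at 1.61 CPM or below in every mouse.

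The channel subunit *Kcnj8* was at 38.3 and 24.3 CPM in control LECs and at 3.74, 11.6, 7.96, 14.1 and 11.4 CPM in mutant LECs, with no overlap and a log2 fold change of -1.62 (SE 0.42). In BECs it had the largest fold change of the set, from 29.1 and 32.3 CPM in controls to 0.0517, 1.69, 0.662, 0.288 and 3.35 CPM in mutants. The mutant mean was 3.94% of the control mean, and the log2 fold change was -5.53 (SE 1.05). *Kcnj8* was also read in another cell type. In the 25 mural cells removed from the set, the mean was 961 CPM, and 12 of them held a read.

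The coronin *Coro6* was found in both lineages. In LECs control 1 stood apart at 118 CPM with control 2 at 29.4 CPM, and mutants 1 to 5 were at 11.4, 5.05, 7.5, 7.77 and 12.4 CPM. Every mutant was below both controls, but the size of the difference rests on control 1. The log2 fold change was -3.33 (SE 0.52). In BECs *Coro6* was at 64.2 and 41.5 CPM in controls and at 17.3, 11, 33.2, 38.4 and 20.2 CPM in mutants. Mutant 4 lay closest to the controls, and the log2 fold change was -1.47 (SE 0.45).

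The endocytic adaptor *Ston1* was lower in the mutants of both lineages. In LECs it was at 14.6 and 30.2 CPM in controls and at 1.98, 3.99, 3.88, 2.98 and 3.78 CPM in mutants (log2 fold change -2.74, SE 0.45). In BECs it was at 23.9 and 49.3 CPM in controls and at 2.81, 7.6, 7.44, 6.83 and 7.92 CPM in mutants (log2 fold change -2.57, SE 0.49). The groups were separate in both, with mutant means of 14.8% and 17.8% of the control means. In cells with a read the mean was also lower, at between 56.6 and 129 CPM in control BECs and between 14.1 and 37.2 CPM in mutant BECs.

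The RAP1 exchange factor *Rasgrp2* was read in both lineages. In BECs it was at 99.2 and 65.3 CPM in controls and at 9.90, 17, 19.1, 17 and 9.89 CPM in mutants, with no overlap, a mutant mean of 17.7% of the control mean and a log2 fold change of -2.75 (SE 0.31). In LECs it was at 68.2 and 56.9 CPM in controls and at 35.9, 46.0, 29.0, 34.5 and 72.0 CPM in mutants. Mutant 5, the mutant of the controls' plate series, was above both controls in LECs, and the log2 fold change was -0.55 (SE 0.34). The plates of mutant 5 were at 53.4 and 92.0 CPM, the first below both controls. Whether the change differs between the lineages was not tested, since the choice of genes used both.

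The receptor *Kit* was at 32.9 and 39.1 CPM in control BECs and at 12.2, 35.0, 12.4, 22.4 and 16.9 CPM in mutant BECs. Mutant 2 lay between the controls, and the log2 fold change was -1.26 (SE 0.49). In LECs it was at 13.4 and 6.32 CPM in controls and at 1.35, 9.91, 3.37, 7.0 and 5.74 CPM in mutants, with overlap. The 6 mast cell markers ran the other way, from at most 3.09 CPM in control BECs to between 11.1 and 59.3 CPM in mutant BECs, with 4 of the 6 under 1 CPM in every mouse. The melanocyte or Schwann cell markers were lower in mutant LECs, at 19.7 to 87.8 CPM in controls and 4.62 to 19.1 CPM in mutants, and overlapped in BECs. Among removed cells, *Kit* was at 214 CPM in the 1 melanocyte or Schwann cell. Its mean was 32.5 CPM in the 23 fibroblast-marker cells and 24.1 CPM in the 25 mural cells. The source of *Kit* RNA was not tested.

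The remodelling subunit *Cecr2* was a BEC gene, at 20.6 and 32.7 CPM in controls and at 4.30, 6.34, 6.78, 2.93 and 9.66 CPM in mutants, with no overlap and a log2 fold change of -2.44 (SE 0.38). In LECs it was at about 1 CPM in both controls, and the highest mutant value of 6.04 CPM came to 93.3% from a single cell. *Gkn3* was at 33.1 and 46.0 CPM in control BECs and at 7.30, 9.20, 10.7, 7.52 and 15.0 CPM in mutant BECs, with no overlap and a log2 fold change of -2.46 (SE 0.36). Only 10.2% and 10.9% of control BECs and between 2.21% and 5.38% of mutant BECs held a read of *Gkn3* at equal depth, and in cells with a read the ranges overlapped, at 112 to 190 CPM in controls and 97.0 to 282 CPM in mutants. In LECs it was at 5.64 CPM or below, and 99.3% of that highest value came from 1 cell.

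To place the genes in subtypes, LECs were divided in order into valve LECs (*Cldn11* of at least 300 CPM), collecting LECs (*Mmrn2* above *Lyve1*), Ptx3 LECs (*Ptx3* of at least 100 CPM) and other LECs. BECs were called arterial-marker or venous-marker when at least 3 of 6 markers of that kind reached 10 CPM and outnumbered those of the other kind. These classes are ranges of marker levels, not types: 148 LECs lay within a factor of 2 of the *Cldn11* limit, 117 within the same factor of the *Ptx3* limit, and 107 had *Mmrn2* and *Lyve1* within a factor of 2 of each other. The markers themselves may also differ between mutant and control cells. In controls, class sizes were small, with 10 and 40 Ptx3 LECs and 29 and 22 collecting LECs.

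Within mice, *Gkn3* was higher in arterial-marker than in other BECs by 8.0 on the log2 scale (SE 1.06, adjusted p = 0.00345, edgeR's quasi-likelihood test), the only member called there beside 0.501% of all genes. The call held under all 13 alternatives. *G0s2* was lower in Ptx3 LECs than in other LECs, by -2.52 on the log2 scale (SE 0.55, adjusted p = 0.0325), the only member called there beside 0.564% of all genes. This call was lost when any single mutant was left out (adjusted p up to 0.197) and when the cells removed by other-cell markers were kept (adjusted p = 0.158).

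The reference in all these tests was the class named other LECs or other BECs, not all remaining cells of the lineage. In valve, collecting and venous-marker cells against that class, edgeR called 0 of 10 members, with 0.456%, 1.13% and 1.09% of all genes called. At an unadjusted p under 0.05 there were 2, 2 and 4 members, and DESeq2 called 1, 1 and 3. The nearest were *Kcnj8* at -4.69 on the log2 scale in valve LECs (SE 1.13, adjusted p = 0.0652) and *Rasgrp2* at -2.90 in venous-marker BECs (SE 0.70, adjusted p = 0.0548). DESeq2 called *Kcnj8* in valve LECs (adjusted p = 5.81e-05) and *Rasgrp2* in venous-marker BECs (adjusted p = 7.01e-05).

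**Figure D1:**
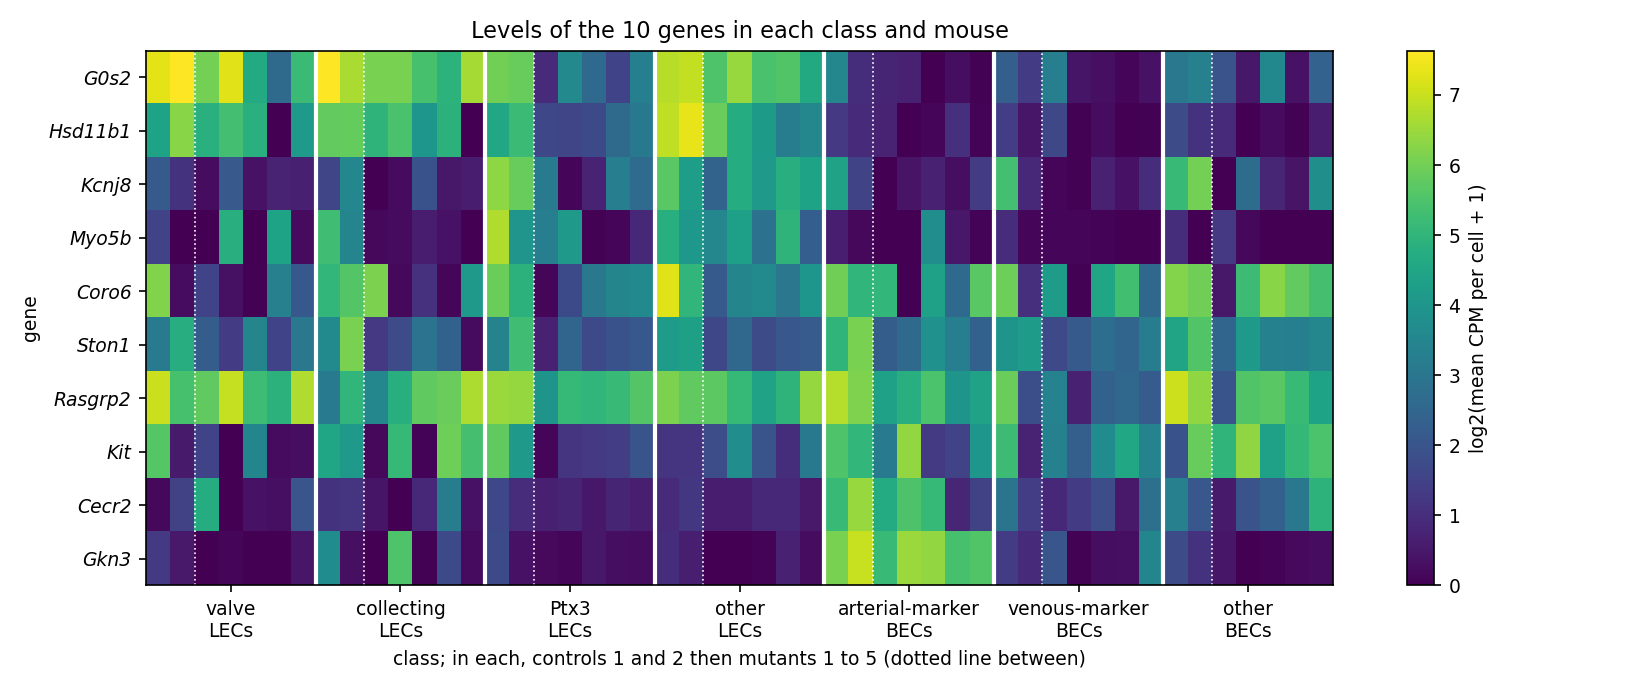
Levels of the 10 genes as log2 of the mean CPM per cell plus 1 in each class and mouse. In each block the columns left of the dotted line are controls 1 and 2 and those right of it mutants 1 to 5. *G0s2* is highest in LEC classes and darker in Ptx3 LECs of mutants, and *Gkn3* is bright in arterial-marker BECs of all 7 mice.

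In the classes, *G0s2* was lower in all mutants than in both controls in 4 of 4 LEC classes. In Ptx3 LECs it was at 63.0 and 57.6 CPM in controls and at 0.904, 11.1, 5.10, 1.87 and 8.81 CPM in mutants. In other LECs it was at 112 and 122 CPM in controls and at 45.2, 86.9, 42.4, 46.5 and 23.9 CPM in mutants. *Hsd11b1* was most abundant in other LECs, at 119 and 164 CPM in controls and 57.9, 25.7, 16.7, 8.18 and 10.7 CPM in mutants. It was separate in 3 of 4 LEC classes and overlapped in valve LECs, where the controls were at 20.6 and 76.8 CPM.

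*Ston1* was lower in all mutants in 3 of 4 LEC classes and 3 of 3 BEC classes. *Kcnj8* in LECs was found almost wholly in Ptx3 and other LECs. In Ptx3 LECs it was at 80.5 and 57.2 CPM in controls and at 7.67, 0.0994, 0.663, 8.60 and 5.38 CPM in mutants. Control 1 had 10 such cells, and 82.6% of its value came from a single cell. In other LECs mutants 2 and 4, at 25.6 and 27.1 CPM, and mutant 5, at 20.4 CPM, lay above control 2 at 18.3 CPM.

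Some members were not lower in every class. *Kit* in collecting LECs was at 22.1 and 16.0 CPM in controls and at 0.113, 33.8, 0.0584, 60.3 and 40.6 CPM in mutants. A single cell gave 97.4% and 98.5% of the control values. *Rasgrp2* in collecting LECs was at 7.66 and 31.4 CPM in controls and at 10.5, 27.2, 53.5, 57.9 and 102 CPM in mutants. These means rest on few cells, 10 collecting LECs in mutant 5 and 18 in mutant 4. In other LECs *Kit* was at 1.24 CPM in both controls and at 2.50, 12.5, 2.93, 1.01 and 7.57 CPM in mutants, with 4 of 5 mutants above the controls and at least 60.7% of each mutant value from a single cell. In other BECs *Kit* was at 2.77 and 56.6 CPM in controls and between 19.6 and 80.6 CPM in mutants. In valve LECs *Myo5b* was at 1.89 and 0 CPM in controls, at 26.5 and 20.7 CPM in mutants 2 and 4, and at 0.169 CPM or below in the other mutants.

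In BECs, *Gkn3* overlapped between the groups once only arterial-marker cells were read, at 66.7 and 127 CPM in controls and at 34.7, 89.0, 83.3, 41.6 and 45.7 CPM in mutants. *Cecr2* in the same cells was at 34.7 and 86.5 CPM in controls and at 25.0, 44.3, 33.5, 0.751 and 1.85 CPM in mutants. *Rasgrp2* stayed separate there, at 108 and 70.5 CPM in controls and between 14.5 and 43.1 CPM in mutants, and in other BECs, at 132 and 82.0 CPM in controls and between 2.92 and 50.4 CPM in mutants. In venous-marker BECs control 2 was at 2.56 CPM, among the mutants.

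The order was also counted by class, among genes with a mean of at least 5 CPM there in controls or in mutants. *Myo5b* and *Cecr2* in valve LECs and *Kit* in other LECs passed this limit through their mutant mean only. All mutants lay below both controls for 1 of 8 members in valve LECs (7.74% of all genes) and 4 of 9 in collecting LECs (7.36%). The same held for 7 of 8 in Ptx3 LECs (12%) and 4 of 8 in other LECs (8.27%). In BECs the counts were 4 of 8 in arterial-marker cells (8.33%), 1 of 5 in venous-marker cells (9.71%) and 3 of 7 in other cells (7.27%). These counts use the contrast that chose the genes and describe it only.

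The make-up of the sorted cells differed in size, but with 5 against 2 mice a two-sided exact permutation test cannot go below p = 0.0952. Arterial-marker BECs made up 48.1% and 35.7% of BECs in controls and between 10.3% and 18.7% in mutants (mean 14.8 ± 3.47%, SD, n = 5), and venous-marker BECs made up 28.8% and 15.9% in controls and between 47.0% and 71.0% in mutants (mean 61.2 ± 8.96%). Neither range overlapped between the groups (exact permutation p = 0.0952 for each, 0.167 after Benjamini-Hochberg over 7 shares). Ptx3 LECs made up 5.49% and 22.6% of LECs in controls and between 27.9% and 42.1% in mutants, and other LECs 65.9% and 54.2% in controls and between 35.5% and 45.5% in mutants (exact permutation p = 0.0952 for each, 0.167 adjusted). Valve LECs (mutant minus control 3.64 percentage points), collecting LECs (-4.70 points) and other BECs (-11.7 points) overlapped between the groups, with exact permutation p-values of 0.19, 0.19 and 0.286. By counting error alone the arterial-marker shares of the controls had 95% Wilson intervals of 40.4% to 55.9% and 28.6% to 43.4%, and their Ptx3 shares of 3.01% to 9.82% and 17.1% to 29.3%, so the controls differed from each other in Ptx3 LECs. Mutant 5, of the same plate series as the controls, was at 18.7% arterial-marker and 62.6% venous-marker BECs and at 42.1% Ptx3 LECs.

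The difference of mean CPM between mutants and controls was then split into a part from class shares and a part from levels within classes, each weighted by the mean of both groups. No share over all genes was taken for this split, so its counts have none beside them. In LECs the part within classes was the larger for 8 of the 8 genes above 5 CPM in controls (9 of all 10 genes). It made up 88.5% of the difference for *G0s2*, 85.8% for *Hsd11b1*, 90.0% for *Coro6* and 99.2% for *Myo5b*. For *Kcnj8*, *Ston1*, *Rasgrp2* and *Kit* the shares moved the other way, and the part within classes exceeded the whole difference, at 106%, 105%, 118% and 130%. The levels of *Kit* and *Myo5b* in the Ptx3 LECs of control 1 came to 98.1% and 77.7% from a single cell each. Set to the class shares of the controls, the mutant mean of *G0s2* was 45.4 ± 20.6 CPM and that of *Hsd11b1* 20.8 ± 14.0 CPM (SD, n = 5 each), still below both controls.

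In BECs the part within classes was the larger for 7 of the 8 genes (8 of all 10 genes). It was 99.6% for *Kcnj8*, 86.7% for *G0s2*, 80.7% for *Coro6*, 79.6% for *Ston1*, 77.7% for *Rasgrp2*, 63.4% for *Kit* and 54.3% for *Cecr2*. For *Kcnj8* and *G0s2* the mural and fibroblast lists moved with this part: in cells with little RNA of either list (below 50 CPM each), control *Kcnj8* was at 1.19 CPM in place of 30.7 CPM, and the part within classes of *G0s2* turned to 0.0778 CPM. The exception among the 8 genes was *Gkn3*, for which the shares gave 65.1% of the difference and the levels within classes 34.9%. The genes with the largest share parts in percent, *Gkn3* and *Cecr2* (45.7%), had their highest control level in arterial-marker BECs. So did *Kit* and *Ston1*, with 36.6% and 20.4% from shares. In CPM the largest share parts were those of *Gkn3* (-19.3) and *Rasgrp2* (-15.1), and control *Rasgrp2* was highest in other BECs. The split has no test, since the contrast chose the genes, and it holds for these marker ranges. It has no class for cycling cells, those with a read of at least 3 of 7 cell cycle genes at 50000 reads. Of LECs, 5 of 359 in controls and 253 of 1282 in mutants were cycling, and of BECs 5 of 313 and 134 of 1192. Such differences are counted in the part within classes, where other finer changes of make-up cannot be seen either.

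RNA of other cell types was lower in mutant cells for several lists. Mural markers summed to between 95.4 and 320 CPM in control LECs and between 27.3 and 62.4 CPM in mutant LECs. Fibroblast markers summed to between 157 and 349 CPM in control BECs and between 13.0 and 50.1 CPM in mutant BECs. Keratinocyte markers were at 158 to 244 CPM in control and 93.5 to 157 CPM in mutant LECs and overlapped in BECs, as immune markers did in both lineages. Melanocyte or Schwann cell markers were at 19.7 to 87.8 CPM in control and 4.62 to 19.1 CPM in mutant LECs and overlapped in BECs. Mast cell markers were at 0.988 CPM or below in control and 5.48 to 11.9 CPM in mutant LECs, and platelet markers at 5.36 to 10.1 CPM in control and 15.7 to 30.2 CPM in mutant LECs, with overlap in BECs. Several members were read in the removed cells. The 25 mural cells held *Rasgrp2* at a mean of 247 CPM beside their *Kcnj8*, and the 2 platelet-marker cells held *Rasgrp2* at 1511 CPM. The 23 fibroblast-marker cells held *G0s2* at 453 and *Hsd11b1* at 70.5 CPM. *Ston1* was at 20.9, 26.2 and 30.0 CPM in the keratinocyte, fibroblast-marker and mural cells, near its mean of 22.4 CPM in control LECs. *Kit* was at 32.5 CPM in the fibroblast-marker and 24.1 CPM in the mural cells, above its mean of 9.85 CPM in control LECs.

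The levels were read again in cells whose mural and fibroblast lists each summed to less than 50 CPM, a limit chosen after seeing the data. It kept 150 of 359 control LECs and 1005 of 1282 mutant LECs, and 110 of 313 control BECs and 915 of 1192 mutant BECs. In these BECs *Kcnj8* was at 1.09 and 1.30 CPM in the controls, against 29.1 and 32.3 CPM in all BECs, and at a mean of 0.196 CPM in mutants. The level of *Kcnj8* in control BECs was thus held almost wholly by cells with mural or fibroblast RNA. *G0s2* in BECs changed direction, with a mean of 1.87 CPM in controls and 2.43 CPM in mutants.

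The other members above 5 CPM in controls again had lower means in mutants. *Coro6* in BECs then overlapped, at 36.9 and 69.7 CPM in controls and between 2.49 and 40.7 CPM in mutants. In LECs *Kcnj8* had a mean of 35.4 CPM in controls and 10.7 ± 4.18 CPM in mutants (SD, n = 5), *Hsd11b1* of 116 and 19.4 ± 13.9 CPM, *G0s2* of 103 and 37.7 ± 23 CPM, and *Ston1* of 18.4 and 3.09 ± 1.28 CPM. *Coro6* in LECs had a mean of 86.5 CPM in controls, from 17.9 and 155 CPM, and 5.88 ± 4.77 CPM in mutants. In BECs the means were 74.6 and 11.3 ± 5.28 CPM for *Rasgrp2*, 55.1 and 21 ± 10.2 CPM for *Kit*, 43.6 and 5.38 ± 3.87 CPM for *Gkn3*, 39.6 and 6.33 ± 2.53 CPM for *Ston1*, and 27.9 and 1.23 ± 0.84 CPM for *Cecr2*. The part of the other lists in these differences was not tested.

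**Figure D2:**
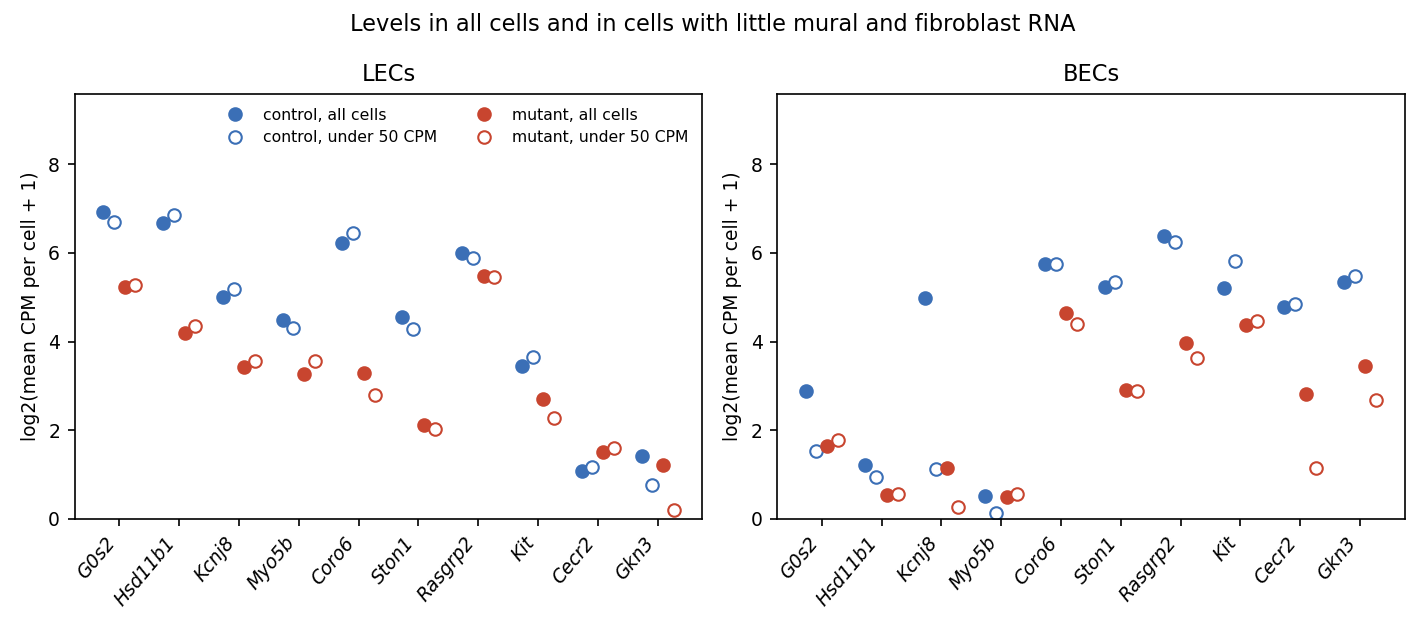
Mean level of each gene, as log2 of CPM plus 1, in all cells (filled) and in cells with less than 50 CPM each of mural and fibroblast markers (open), for controls (blue) and mutants (red), in LECs (left) and BECs (right). The open and filled blue points of *Kcnj8* in BECs stand apart, at 1.19 and 30.7 CPM, while those in LECs stay close, at 35.4 and 31.3 CPM.

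Genes that work with the members were read from 10 lists holding 133 other genes. Between mutant and control mice, 6 of 125 tested list genes passed in LECs (4 higher and 2 lower) and 6 of 121 in BECs (3 higher and 3 lower), beside 3.05% and 2.37% of all genes (edgeR's quasi-likelihood test, adjusted over all genes tested). In edgeR 0 genes were called in LECs or BECs among the partners of KIT signalling (15 tested in each), the KATP and inward rectifier channels (5 and 4), the other coronins (6 and 6), the stonins and clathrin adaptors (12 and 12) and the ISWI partners (12 and 11). At an unadjusted p under 0.05 these lists held 3, 1, 1, 3 and 3 genes in LECs and 1, 1, 3, 3 and 4 in BECs, and DESeq2 called 2, 1, 1, 2 and 2 in LECs and 1, 0, 2, 1 and 1 in BECs. Their median log2 fold changes were 0.35 and 0.23 for KIT signalling in LECs and BECs, -0.38 and -0.74 for the channels, 0.11 and -0.10 for the coronins, 0.02 and -0.06 for the adaptors, and 0.23 and 0.08 for the ISWI partners.

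Of the genes of recycling endosomes, where MYO5B works, 3 that encode EHD membrane remodelling ATPases were called, each in 1 lineage. *Ehd1* rose in LECs from 558 and 381 CPM in controls to between 723 and 867 CPM in mutants (log2 fold change 0.76, SE 0.16, adjusted p = 0.0445, edgeR). *Ehd2* rose in LECs by 0.72 on the log2 scale (SE 0.15, adjusted p = 0.0444, edgeR). *Ehd4* rose in BECs from 517 and 434 CPM to between 878 and 1132 CPM (log2 fold change 1.14, SE 0.14, adjusted p = 0.00875, edgeR). The list counted 2 of 16 tested genes higher in LECs and 1 of 15 in BECs, with medians of 0.11 and 0.33.

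In the RAP1 list, 2 of 21 tested genes rose in LECs and 1 of 21 fell in BECs. *Rapgef5*, another exchange factor for RAP1, rose in LECs from 44.2 and 41.6 CPM to between 81.6 and 208 CPM (log2 fold change 1.82, SE 0.32, adjusted p = 0.0294, edgeR), and *Sipa1*, which inactivates RAP1, rose in LECs by 0.79 (SE 0.14, adjusted p = 0.0294). *Rapgef2*, an exchange factor, fell in BECs from 59.9 and 80.1 CPM to between 34.8 and 47.4 CPM (log2 fold change -1.02, SE 0.21, adjusted p = 0.0445, edgeR). The list medians were 0.26 in LECs and -0.07 in BECs.

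In the glucocorticoid list 1 of 14 tested genes passed in LECs and 0 of 14 in BECs, where 2 had an unadjusted p under 0.05 and DESeq2 called 1. *Klf9*, a target of the glucocorticoid receptor, fell in LECs from 181 and 99.0 CPM to between 56.4 and 86.1 CPM (log2 fold change -1.29, SE 0.27, adjusted p = 0.0447, edgeR), and the list median was -0.59 in LECs and -0.27 in BECs. In the lipolysis list 2 of 13 tested genes passed in BECs and 0 of 14 in LECs, where 5 had an unadjusted p under 0.05 and DESeq2 called 2. *Mgll*, the monoglyceride lipase, fell by 0.57 on the log2 scale in BECs (SE 0.12, adjusted p = 0.0477, edgeR), and *Fabp5*, a fatty acid carrier, rose by 0.88 (SE 0.18, adjusted p = 0.0498). The medians were -0.18 in LECs and -0.03 in BECs.

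In the arterial list *Efnb2*, the arterial ephrin ligand, fell in BECs from 85.2 and 97.1 CPM to between 31.6 and 50.8 CPM (log2 fold change -0.99, SE 0.18, adjusted p = 0.0325, edgeR), while *Fbln5*, an elastic fibre protein, rose from 269 and 241 CPM to between 438 and 939 CPM (log2 fold change 1.4, SE 0.25, adjusted p = 0.0325). *Fbln5* is also 1 of the 6 markers that define arterial-marker BECs, so 1 of these markers moved against their falling share. *Stmn2* fell in LECs by 0.85 on the log2 scale (SE 0.17, adjusted p = 0.0426, edgeR). The median of the arterial list was -0.86 in BECs and -0.42 in LECs. Of the 12 calls, *Ehd4* was lost in 1 of 14 alternative analyses and each of the others in 6 to 11 of 14.

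The genes most like each member were ranked by Pearson's r of log2(CPM + 1) over 49 sums of classes and mice, which share mice, depth and marker classes, so no p is given. *Gkn3* was most like *Gja5* (r = 0.92), 1 of the markers that define arterial-marker BECs, then *Egfl8* (0.82) and *Amd1* (0.70). *G0s2* was most like *Nrxn2*, *Rhoj* and *S100a16* (0.88 each), and *Hsd11b1* like *G0s2* (0.86), *Fam180a* (0.83) and *Ang* (0.82). *Ston1* was most like *Zfp36l1* (0.77), *Pttg1* (0.75) and *Tmem72* (0.75). The remaining members had no gene above 0.67.

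*Rasgrp2* was nearest *Jup*, *Plekhb1* and *Tppp3*, *Cecr2* nearest *Gse1*, *Cdc42ep1* and *Afdn*, *Myo5b* nearest *Zdhhc2*, *Mrc1* and *Fmnl2*, and *Kit* nearest *Ushbp1*, *Nisch* and *Dcbld1*. *Coro6* was nearest *Rgs5* (0.67), a marker of the mural list, then *Ech1* and *Dhrs3*, and *Kcnj8* nearest *Col3a1* (0.66), a marker of the fibroblast list, then *Sri* and *Dusp3*. *Coro6* was at a mean of 0.517 CPM in the 25 removed mural cells, 18 of which came from mutant mice. The source of *Coro6* RNA was not tested.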

How the data were processed

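Smart-Seq2 libraries of single ear skin cells from 9 plates of 7 mice were analysed. A further control plate was not analysed here. Raw read counts per gene were deposited by the authors, who aligned reads with TopHat2 2.1.1 to GRCm38, removed duplicates with SAMtools 0.1.18 and counted with featureCounts. The annotation version is not given in the sources used here. Of 46517 Ensembl genes, 46005 had a symbol. A cell needed 200 genes and 50000 reads, with mitochondrial reads not above 10% (3248 of 3456 wells passed). A cell was removed if its mean log2(CPM + 1) over any of 7 other-cell lists exceeded that over the pan-endothelial list (99 cells), and 3 cells with equal LEC and BEC sums were left out. No doublet caller was run, and 0 cells were identical.

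Cells were not treated as replicates: counts were summed per mouse and class, 5 cells at least, and tested with edgeR 4.0.16 in R 4.3.3 (quasi-likelihood, TMM, filterByExpr, Benjamini-Hochberg), after testing on simulated data. DESeq2 1.42.0 was an alternative. Levels are means over cells of CPM, then over mice. Exact permutation tests over the 21 splits of the 7 mice were run in Python 3.11.15 with scipy 1.17.1. LEC sums held 54931064 to 193684275 reads per mouse and BEC sums 39322802 to 100287464, and intervals of shares cover counting error only. Coordinates are from the GENCODE annotation of GRCm38. The 10 genes and the gene lists were chosen with earlier results of these data known. Named besides the members were list genes that were called, at most 3 per direction and cell type by fold change, if their mean log2 CPM reached 3, and the 3 genes most like each member.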

Additional observations from a re-analysis of the deposited data

Results flagged for a closer look

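In groups of 5 mutant mice the highest or lowest value was compared with its nearest neighbour by Dixon's ratio, and 6 of 39 groups tested passed the limit, where chance gives about 1 in 20. *Myo5b* in BECs was at 1.61 CPM in mutant 3, with the next mutant at 0.268 CPM. *Hsd11b1* in BECs was at 1.77 CPM in mutant 1, with the next at 0.205 CPM. *Ston1* in BECs was at 2.81 CPM in mutant 1, below the next lowest mutant at 6.83 CPM. *Cecr2* in LECs was at 6.04 CPM in mutant 1, with the next at 1.44 CPM. *Gkn3* in LECs was at 5.64 CPM in mutant 2, with the next at 0.548 CPM. *Klf9* in LECs was at 86.1 CPM in mutant 1, with the next at 59.7 CPM. No cause was tested for any of these values.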

How the results depend on the processing

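With DESeq2 the genes called were 2537 (LECs) and 2329 (BECs) for mutant against control, 789 for arterial-marker, 772 for venous-marker, 554 for valve, 1002 for collecting and 294 for Ptx3 cells, against 598, 451, 88, 192, 80, 199 and 99 in edgeR. Without cycling cells edgeR called 119 genes in mutant against control LECs, 26 in arterial-marker BECs and 115 in collecting LECs. With other cells kept valve LECs had 159 calls, without an expression filter collecting LECs had 130, and in mutant mice only valve LECs had 41 and Ptx3 LECs 178. Leaving out each mouse gave 195 to 590 calls for mutant against control in LECs and 145 to 611 in BECs, 3710 to 4544 for LECs against BECs, 15 to 90 for arterial-marker, 81 to 183 for venous-marker, 17 to 63 for valve, 49 to 176 for collecting and 19 to 148 for Ptx3 cells. It gave 9 to 10 members with a larger part within LEC classes and 7 to 9 within BEC classes. Shares, mutant minus control, ranged over 1.88 to 4.75 points (valve), -6.45 to -2.95 (collecting), 11 to 28.1 (Ptx3), -24.4 to -12.7 (other LECs), -33.3 to -20.9 (arterial-marker), 32.3 to 45.2 (venous-marker) and -24.4 to 0.969 (other BECs, turned without control 2). Replicate numbers were shared by mutants and controls 1 and 2, but the labels do not say that they pair mice. Deviations of same-numbered mice had correlations of -0.0104 and 0.0340 in LECs and 0.0147 and 0.0804 in BECs. The deviations of 2 controls from their mean are mirror images, so these correlations cannot show whether mice were paired. The replicate block called 60 genes in LECs and 39 in BECs. Parts within classes changed sign for 5 low or overlapping values: *Gkn3* in LECs (CPM of -0.0623 with limits doubled, -0.581 in cells with little other-cell RNA, -0.462 with reads summed, -1.08 for mutant 5 alone, and -1.23 to 1.07 with 1 mouse left out, below 0 without control 2, -0.992, or mutant 2), *Cecr2* in LECs (-0.358 for mutant 5 alone, and -0.226, without mutant 1, to 0.997 with 1 mouse left out), *Rasgrp2* in LECs (10.0 for mutant 5 alone), *G0s2* in BECs (0.0778 in cells with little other-cell RNA) and *Myo5b* in BECs (-0.458 for mutant 5 alone, and -0.342 to 0.591 with 1 mouse left out, below 0 without control 2, -0.0686, or mutant 3). The causes were not tested. With 2 controls, class levels that rest on 10 to 40 cells and members below 5 CPM are read as values only.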
